A study of Canis lupus familiaris with 18 samples.

Results

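POLH, the gene for DNA polymerase eta, was followed together with its partner genes of translesion DNA synthesis in high grade oligodendroglioma (HGO), a malignant glial brain tumor, of dogs. The set was chosen by gene symbol and named 8 genes, POLH, POLK, POLI, REV1, REV3L, MAD2L2, RAD18 and POLQ. POLH was taken because its counts were higher in French bulldogs than in the comparison breeds, so the breed difference of POLH is given as a description and without a test. Rows under the symbols of 6 of the 8 genes were found among the 29993 genes counted, and REV1 and POLQ were not analysed here. All 6 passed the filter on low counts, as did 16495 genes in all.

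The tumors came from 11 French bulldogs and for comparison from 4 boxers and 3 Boston terriers, all of them pet dogs whose tumor was resected before any trial treatment. RNA was sequenced from scrolls of formalin-fixed, paraffin-embedded tissue, so each library mixes tumor cells with the other cells of the block. In such bulk tissue, fewer cells of a type and less RNA per cell cannot be told apart. Dogs are called by their breed and the number in their label. The library names number the French bulldogs S1 to S12, boxers 1, 3 and 4 and Boston terrier 2 S18 to S21, and boxer 5 and Boston terriers 6 and 7 again S1 to S3. The labels do not say which libraries were prepared or run together, so the part of a batch in the breed differences was not tested.

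Translesion synthesis lets a replication fork pass a damaged base that the replicative polymerases cannot copy. RAD18, a ubiquitin ligase, marks the sliding clamp PCNA at a stalled fork, and the marked clamp recruits low-fidelity polymerases with a spacious active site. Polymerase eta copies past ultraviolet-induced pyrimidine dimers with few errors, and its inherited loss in humans causes the variant form of xeroderma pigmentosum. Polymerases kappa and iota insert bases opposite other lesions, and polymerase zeta, built on REV3L with MAD2L2 as an accessory subunit, extends the new strand beyond the lesion. In gliomas these enzymes are of interest because they also copy past adducts left by DNA-damaging drugs.

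The total counted on genes was 8212452 to 13169880 per dog, and 3 counts, taken as the smallest level the depth could show, corresponded to 0.223 to 0.351 CPM, the unit of all levels given here, which scales counts to a common library size after TMM normalization. This limit covers counting error only. French bulldog 6 stood apart from the others in cell markers. It had 0 counts of OLIG2 and 2 of SOX10, both defining factors of the oligodendrocyte lineage, and its summed level of 7 lineage markers was 61.2 CPM against 2174 to 8318 CPM in the other French bulldogs and 2105 to 3765 CPM in the comparison group. Its 8 macrophage and microglia markers summed to 5317 CPM, against 39.4 to 255 CPM in the other 17 dogs. In the same dog 4 astrocyte markers summed to 8.64 CPM, against 339 to 4627 CPM in the others. Its 5 neuron markers summed to 0.73 CPM, against 50.8 to 991 CPM. For 4 T cell markers its sum was 75.8 CPM, against at most 8.40 CPM. The 4 endothelial markers, at 191 CPM, lay within the range of the others, 114 to 738 CPM. French bulldogs 2 and 8 carry the same case number and had the highest correlation of all 153 pairs of libraries over log2 CPM (Pearson's r = 0.98, next pair 0.95). Chi-square per degree of freedom of their counts was 9.66, above counting error and below the 34.0 of the next closest pair of French bulldogs. They are counted as 2 dogs unless said otherwise and may be 2 blocks of 1 dog, which was not tested. The study's list of dogs gives the French bulldogs of these numbers the same age, sex and tumor site. The members are therefore given also without French bulldogs 2, 6 and 8, an alternative chosen after the data were seen.

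POLH was higher in French bulldogs, with a mean of 10.1 ± 4.21 CPM (SD, n = 11) against 4.89 ± 1.29 CPM (SD, n = 7) in the comparison group. In French bulldogs the lowest level was 4.55 CPM, the median 9.41 and the highest 17.2. Boxers 1, 3, 4 and 5 had 7.21, 4.11, 3.34 and 5.73 CPM, and Boston terriers 2, 6 and 7 had 5.17, 4.60 and 4.06 CPM. The groups overlapped. French bulldogs 9 (4.55 CPM), 11 (5.16) and 3 (6.74) lay within the range of the comparison group, and the other 8 lay above every comparison dog. In 1.32% of all genes tested at least as many French bulldogs lay above every comparison dog, and nothing is read from this because the gene was chosen on this contrast. The counts behind these levels were 35 to 167 per dog.

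The fitted log2 fold change of POLH was 1.04 ± 0.28 (SE), or 2.06-fold. The highest POLH levels were those of French bulldog 6 with 17.2 CPM and French bulldog 8 with 17.0 CPM, followed by French bulldog 2 with 12.0 CPM. Without these 3 dogs the French bulldog mean was 8.05 ± 2.47 CPM (SD, n = 8), and the log2 fold change was 0.72. Without French bulldog 6 alone it was 0.96, and with French bulldogs 2 and 8 summed as 1 dog 0.98. Against the boxers alone it was 0.98, and against the Boston terriers alone 1.13. Against the comparison libraries numbered S18 to S21 it was 1.02, and against those numbered S1 to S3 it was 1.07. These values share the French bulldogs and are given as a description.

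**Figure D1:**
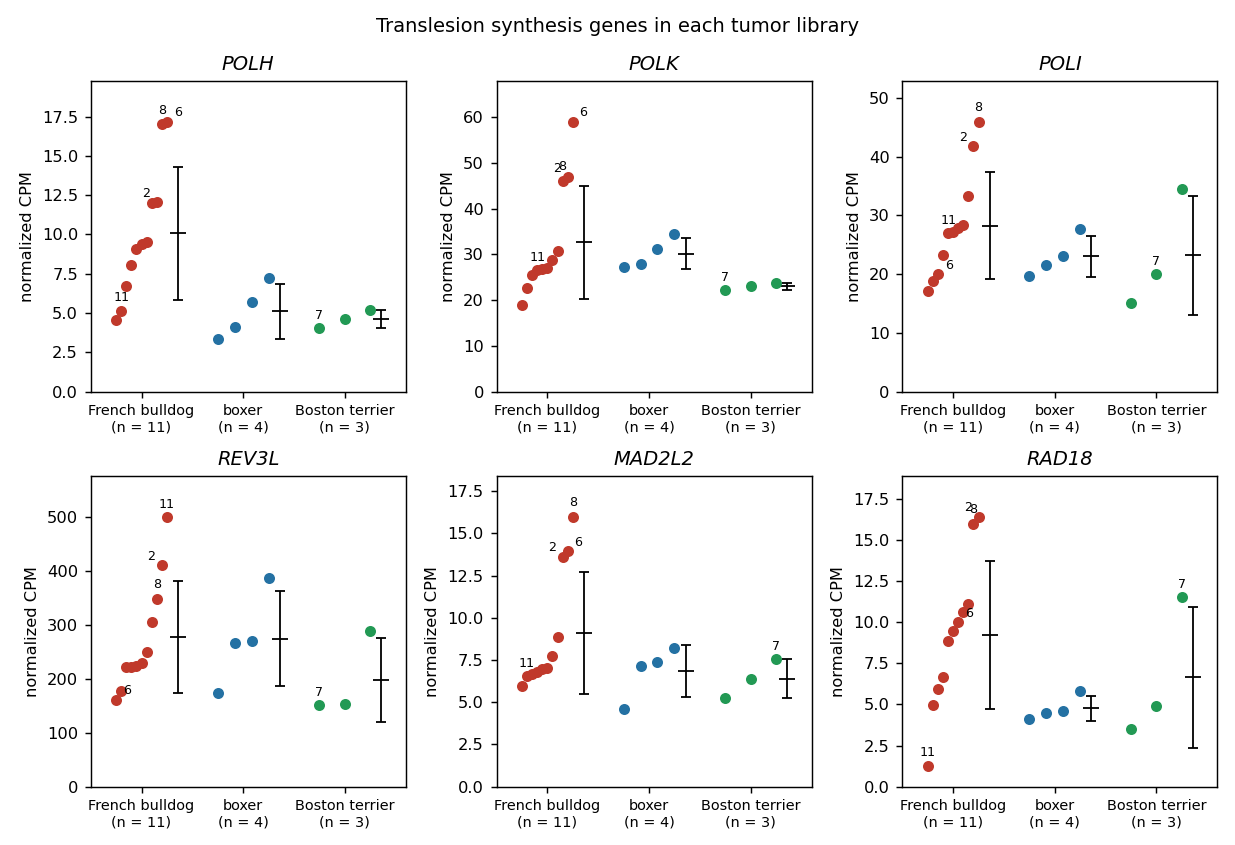
Normalized CPM of the 6 translesion genes (vertical axes, linear, from 0) in each tumor library, by breed and ordered by level within a breed. Points are dogs, horizontal marks with bars are the mean ± SD, and dog numbers are printed for French bulldogs 2, 6, 8 and 11 and Boston terrier 7. French bulldogs 2, 6 and 8 hold the 3 highest values of POLH, POLK and MAD2L2, while REV3L is highest in French bulldog 11 at 499.8 CPM and RAD18 lowest there at 1.29 CPM.

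POLK and POLI, the other members of the Y family of polymerases that were measured, did not pass the test between French bulldogs and the comparison group. POLK, the gene for polymerase kappa, averaged 32.6 ± 12.4 CPM (SD, n = 11) in French bulldogs, with a lowest level of 18.8, a median of 27.1 and a highest of 59.0 CPM. Boxers 1, 3, 4 and 5 had 34.4, 27.9, 27.2 and 31.2 CPM of POLK, and Boston terriers 2, 6 and 7 had 23.1, 23.8 and 22.3 CPM. The medians of POLK in the French bulldogs and the comparison group, 27.1 and 27.2 CPM, were nearly equal, and the higher French bulldog mean came with the levels of 46.1 to 59.0 CPM in French bulldogs 2, 6 and 8. The log2 fold change of POLK was 0.27 ± 0.21 (SE, 95% interval -0.18 to 0.71, edgeR adjusted p = 0.660), and without these 3 dogs it was -0.069. Against the boxers it was 0.11 and against the Boston terriers 0.51.

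POLI, the gene for polymerase iota, averaged 28.3 ± 9.11 CPM (SD, n = 11) in French bulldogs, from 17.2 through a median of 27.2 to 46.0 CPM. Its levels in boxers 1, 3, 4 and 5 were 27.7, 19.6, 23.2 and 21.6 CPM, and in Boston terriers 2, 6 and 7 they were 34.5, 15.1 and 19.96 CPM. French bulldogs 8 and 2 had the highest POLI levels, French bulldog 6 was among the low ones with 19.99 CPM, and the breeds overlapped broadly. The log2 fold change of POLI was 0.29 ± 0.21 (SE, 95% interval -0.15 to 0.74, edgeR adjusted p = 0.623), and 0.14 without French bulldogs 2, 6 and 8. Against the comparison libraries S18 to S21 it was 0.11 and against S1 to S3 0.58.

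The subunits of polymerase zeta differed from each other in which dogs were high. REV3L, its catalytic subunit, averaged 277 ± 104 CPM (SD, n = 11) in French bulldogs, from 161 through a median of 229 to 499.8 CPM. Boxers 1, 3, 4 and 5 had 387, 269.8, 173 and 266 CPM of REV3L, and Boston terriers 2, 6 and 7 had 288, 154 and 152 CPM. French bulldog 11 was highest and French bulldog 6 lowest of the French bulldogs, and the median of the comparison group, 266 CPM, was above that of the French bulldogs. Its log2 fold change was 0.20 ± 0.25 (SE, 95% interval -0.32 to 0.72, edgeR adjusted p = 0.805). It was -0.012 against the comparison libraries S18 to S21 and 0.54 against S1 to S3, and 0.016 against the boxers and 0.49 against the Boston terriers. Without French bulldog 11 it was 0.077, without boxer 1 0.35, and without French bulldogs 2, 6 and 8 0.14.

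MAD2L2, also known as REV7, is the accessory subunit of polymerase zeta and takes part in end protection at double-strand breaks as well. It averaged 9.10 ± 3.60 CPM (SD, n = 11) in French bulldogs, from 5.97 through a median of 7.02 to 16.0 CPM. In boxers 1, 3, 4 and 5 it was at 4.61, 7.40, 8.20 and 7.13 CPM, and in Boston terriers 2, 6 and 7 at 6.40, 5.27 and 7.54 CPM. The medians of the groups were 7.02 and 7.13 CPM, and 4 French bulldogs, numbers 8, 6, 2 and 1, lay above every comparison dog. The log2 fold change of MAD2L2 was 0.45 ± 0.24 (SE, 95% interval -0.05 to 0.96, edgeR adjusted p = 0.506), and 0.089 without French bulldogs 2, 6 and 8.

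RAD18, the ligase that marks PCNA for the polymerases, had the largest fitted difference of the 5 genes other than POLH, and also the largest spread. It averaged 9.20 ± 4.49 CPM (SD, n = 11) in French bulldogs, from 1.29 through a median of 9.49 to 16.4 CPM. Boxers 1, 3, 4 and 5 had 4.61, 4.11, 4.48 and 5.84 CPM, and Boston terriers 2, 6 and 7 had 4.89, 3.51 and 11.5 CPM. Boston terrier 7 had a level like those of the upper French bulldogs, and the other 6 comparison dogs lay within 3.51 to 5.84 CPM. French bulldog 11 was far below all others with 13 counts of RAD18. The log2 fold change was 0.72 ± 0.38 (SE, 95% interval -0.06 to 1.51, edgeR adjusted p = 0.497). It was 1.01 without Boston terrier 7 and 0.40 without French bulldogs 2, 6 and 8. Against the Boston terriers it was 0.46 and against the libraries S1 to S3 0.39, and both of these sets hold Boston terrier 7.

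None of the 5 genes other than POLH, 0 of 5, had an adjusted p under 0.05 by edgeR's quasi-likelihood test, against 0.00606% of all genes tested, which is 1 gene. DESeq2, which called 0.259% of the genes it gave an adjusted p, and limma-voom also called 0 of 5. Unadjusted p-values were under 0.05 for 0 of 5 genes by edgeR and by limma-voom and for 1 of 5 by DESeq2, against 10.6%, 9.31% and 9.62% of all genes tested by these tools. The fitted log2 fold changes of these 5 genes were all above 0, as were 53.7% of those over all genes, and their median was 0.29 against 0.035 over all genes. Without French bulldogs 2, 6 and 8 that of POLK was below 0.

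**Figure D2:**
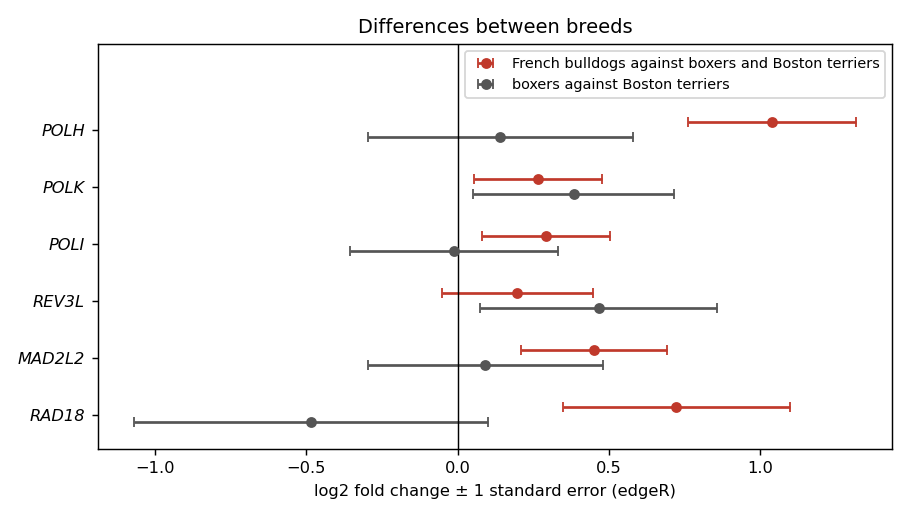
Log2 fold changes (horizontal axis) of the 6 translesion genes with bars of 1 standard error, from edgeR, for French bulldogs against boxers and Boston terriers and for boxers against Boston terriers. Values for French bulldogs run from 0.20 for REV3L to 1.04 for POLH, which was chosen on that contrast and carries no test. Values for boxers against Boston terriers run from -0.49 for RAD18 to 0.47 for REV3L.

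Boxers were compared with Boston terriers to see how these genes differ between the breeds of the comparison group, a contrast that the choice of POLH did not use. POLH averaged 5.10 ± 1.73 CPM (SD, n = 4) in boxers and 4.61 ± 0.558 CPM (SD, n = 3) in Boston terriers. The log2 fold change of POLH was 0.14 ± 0.44 (SE, 95% interval -0.78 to 1.06). The levels of POLH overlapped between these breeds, and the interval leaves room for a change of either sign. POLK was the 1 gene of the 6 whose levels did not overlap, with all 4 boxers at 27.2 to 34.4 CPM and all 3 Boston terriers at 22.3 to 23.8 CPM. Such a separation in either direction was seen in 7.26% of the 16495 genes. Its log2 fold change was 0.38 ± 0.33 (SE, 95% interval -0.31 to 1.08). Among the libraries numbered S18 to S21 and among those numbered S1 to S3 the boxers were above the Boston terriers for POLK, at 27.2 to 34.4 against 23.1 CPM in S18 to S21 and at 31.2 against 22.3 and 23.8 CPM in S1 to S3.

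For the other genes the log2 fold change of boxers against Boston terriers was -0.012 for POLI, 0.47 for REV3L, 0.091 for MAD2L2 and -0.49 for RAD18. Of the 6 values 4 were above 0, as were 51.6% over all genes. The RAD18 value became 0.18 without Boston terrier 7, and that of REV3L 0.25 without boxer 1 and 0.84 without Boston terrier 2. By edgeR's quasi-likelihood test, 0 of 6 genes had an adjusted p under 0.05 and each adjusted p was 1, against 0% of the 17934 genes tested. DESeq2 called 0 of 6 and 0% of all genes. Unadjusted, 0 of 6 had a p under 0.05 by either tool, against 2.12% of all genes by edgeR and 2.92% by DESeq2.

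Within groups the dogs varied by gene. The SD of log2 CPM within groups was 0.53 for POLH, 0.42 for POLK, 0.42 for POLI, 0.51 for REV3L and 0.43 for MAD2L2. These 5 values were below the median of 0.64 over all genes tested, and the 0.83 of RAD18 was above it. Among the 1000 genes of most similar level, the median spread was 0.71 for POLH, 0.47 for POLK, 0.48 for POLI, 0.45 for REV3L, 0.69 for MAD2L2 and 0.72 for RAD18, so that REV3L and RAD18 were the genes above theirs. The spread of POLH was 0.61 in French bulldogs, against 0.35 in the comparison group.

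Which of these genes were high in the same dogs was measured on log2 CPM centred within the French bulldogs and within the boxers and Boston terriers, so that the breed difference was taken out. Over 18 dogs, 19 of 21 relations, 15 between pairs of the 6 genes and 6 with MKI67, were above 0, and 6 of 21 passed by Pearson's r (permutation test, two-sided, adjusted p under 0.05 over the 21). MKI67 encodes the proliferation antigen Ki-67 that marks cycling cells. POLH was correlated with RAD18 (r = 0.61, permutation p = 0.0138, adjusted 0.0482; Spearman's rho = 0.61, permutation p = 0.0105, adjusted 0.0443), a call that was lost with French bulldogs 2 and 8 summed as 1 dog (r = 0.58, adjusted permutation p = 0.0963). POLI was correlated with REV3L (r = 0.70, permutation p = 0.00205, adjusted 0.0135, and rho = 0.70, permutation p = 0.00231, adjusted 0.0162). POLK and MAD2L2 passed by r (0.68, permutation p = 0.00653, adjusted 0.0274) and not by rho (0.44, permutation p = 0.0836, adjusted 0.176), and the call by r was lost with that sum too (r = 0.62, adjusted permutation p = 0.0852). The last pair is one in which the 3 highest dogs are the same for both genes. Among 11583 genes with a symbol ranked by rho with POLH, RAD18 came at place 508 from the top and MKI67 at 458. POLK was at 1396, POLI at 1785, MAD2L2 at 2892 and REV3L at 3219. All 5 translesion genes other than POLH were above 0 by this rho, as were 48.3% of the ranked genes.

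Levels of MKI67 were 566 to 712 CPM in French bulldogs 2, 6 and 8 and at most 234 CPM in the other 15 dogs, so that these libraries form a cluster of their own, of 3 dogs by the labels or of 2 if French bulldogs 2 and 8 are the same dog. POLH went with MKI67 over all 18 dogs (r = 0.72, permutation p = 0.00257, adjusted 0.0135, and rho = 0.62, permutation p = 0.0102, adjusted 0.0443). MAD2L2 did so with r = 0.79 (permutation p = 0.00051, adjusted 0.00535) and rho = 0.72 (permutation p = 0.00187, adjusted 0.0162), and RAD18 with r = 0.75 (permutation p = 0.00029, adjusted 0.00535) and rho = 0.88 (permutation p = 1e-05, the smallest that the permutations can give, adjusted 0.00021). In the 15 dogs outside the cluster, POLH and MKI67 had r = 0.46 (permutation p = 0.107, adjusted 0.320), MAD2L2 and MKI67 had r = 0.44 (permutation p = 0.0864, adjusted 0.320), and RAD18 and MKI67 had r = 0.67 (permutation p = 0.0076, adjusted 0.160). None of the 21 relations, 0, passed in these 15 dogs, where 2 had an unadjusted permutation p under 0.05, RAD18 with MKI67 and POLI with REV3L. Leaving out these 3 dogs also narrows the range of MKI67, and the calls of POLH, MAD2L2 and RAD18 with MKI67 were all lost without them. With French bulldogs 2 and 8 summed as 1 dog, r with MKI67 was 0.70 for POLH (adjusted permutation p = 0.0279), 0.75 for MAD2L2 (adjusted permutation p = 0.0169) and 0.71 for RAD18 (adjusted permutation p = 0.0169).

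Within the 11 French bulldogs r of POLH and MKI67 was 0.89, and within the 7 comparison dogs it was -0.19, a difference that was not tested. For POLH and RAD18 r was 0.75 within the French bulldogs and -0.11 within the comparison dogs, which was not tested either. Boston terrier 7, which had the highest RAD18 level of the comparison group, also had its highest MKI67 level with 211 CPM, and its POLH level of 4.06 CPM was below the comparison mean. Leaving out the 2 dogs farthest from the median of the first gene left r at 0.57 for POLH and MKI67 (adjusted permutation p = 0.143), 0.69 for MAD2L2 and MKI67 (adjusted permutation p = 0.0483), 0.85 for RAD18 and MKI67 (adjusted permutation p = 0.00084), 0.66 for POLH and RAD18 (adjusted permutation p = 0.0637), 0.66 for POLI and REV3L (adjusted permutation p = 0.0517), and 0.48 for POLK and MAD2L2 (adjusted permutation p = 0.192).

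**Figure D3:**
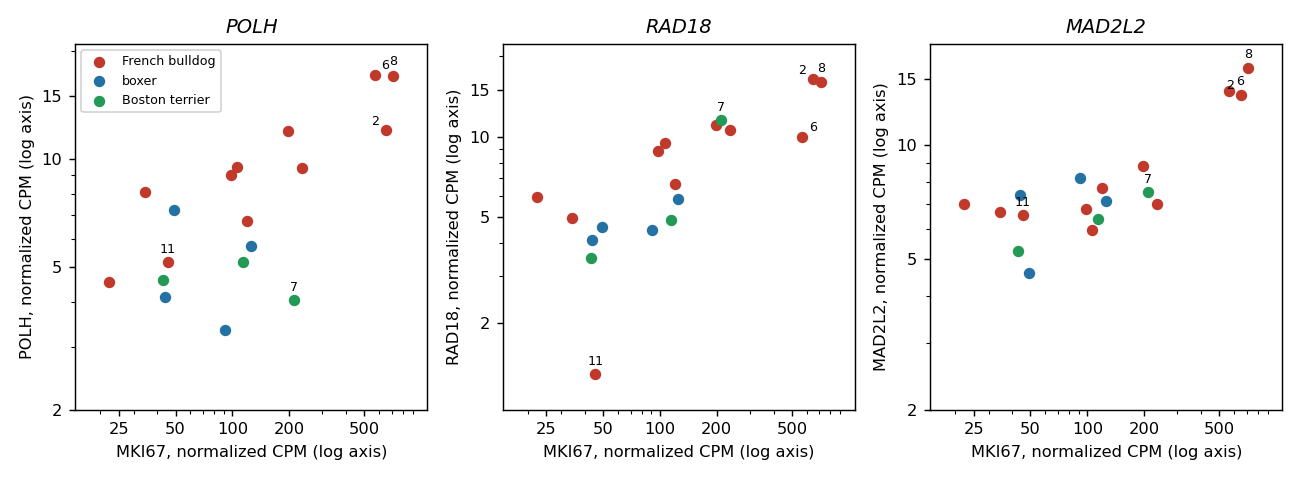
Normalized CPM of POLH, RAD18 and MAD2L2 (vertical, log axes) against that of MKI67 (horizontal, log axes), 1 point per dog, colored by breed, with the numbers of French bulldogs 2, 6, 8 and 11 and Boston terrier 7. French bulldogs 2, 6 and 8 sit apart at 566 to 712 CPM of MKI67, and the other 15 dogs lie at or below 234 CPM, where no relation passed the test. French bulldog 11 is lowest for RAD18 at 1.29 CPM.

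**Figure D4:**
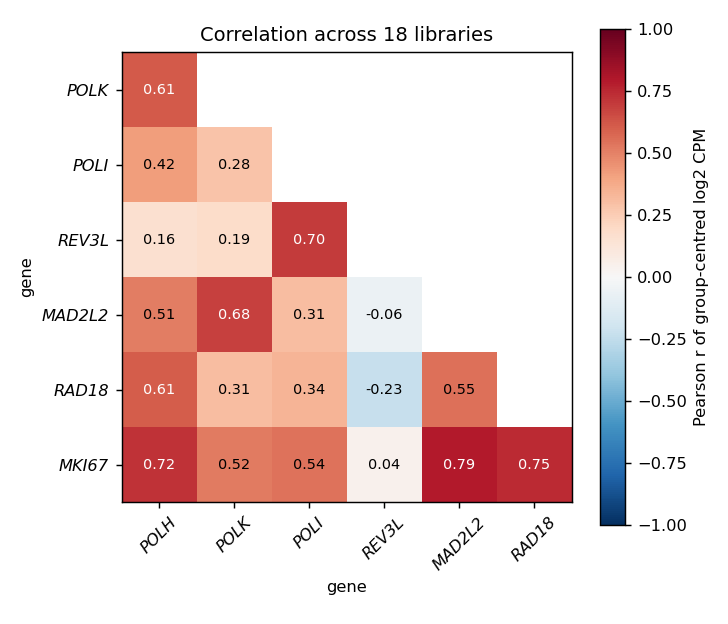
Pearson's r of group-centred log2 CPM over 18 dogs for each pair of the 6 translesion genes and for each with MKI67, as a color scale with the value printed in each cell. The highest value is 0.79 for MAD2L2 with MKI67, and the lowest is -0.23 for REV3L with RAD18.

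Proliferation genes were also higher on average in French bulldogs without passing the test. MKI67 averaged 253 ± 260 CPM (SD, n = 11) in French bulldogs and 96.9 ± 60.7 CPM (SD, n = 7) in the comparison group. In the 8 French bulldogs other than numbers 2, 6 and 8 it averaged 107 ± 76.3 CPM, and the log2 fold change of MKI67 without those 3 was 0.15. The summed level of 7 proliferation markers was 80.2 to 1248 CPM in French bulldogs and 106 to 509 CPM in the comparison group. All 7 had a fitted log2 fold change above 0 (median 0.95), as did 53.7% of all genes, and 0 of 7 passed after adjustment by edgeR, DESeq2 or limma-voom. By these tools 3, 3 and 0 of 7 had an unadjusted p under 0.05, against 10.6%, 9.62% and 9.31% of all genes. BUB1, a kinase of the mitotic checkpoint, had a log2 fold change of 1.60, TOP2A, a topoisomerase of dividing cells, 1.34, and MKI67 1.39. With limma-voom these were 0.95, 1.01 and 0.80, and without French bulldogs 2, 6 and 8 they were 0.47, 0.60 and 0.15. Of the markers of other cells, 0 passed in this contrast after adjustment by edgeR, DESeq2 or limma-voom. All 8 macrophage and microglia markers were above 0 with a median of 1.82. By edgeR, DESeq2 and limma-voom 4, 1 and 0 of 8 had an unadjusted p under 0.05, against 10.6%, 9.62% and 9.31% of all genes. Without French bulldog 6, 5 of 8 were above 0 with a median of 0.22. By edgeR 0 of 8 then had such a p, against 1779 of the 16403 genes tested in that fit. The T cell marker CD2, the 1 of 4 that passed the filter, was at 2.03, and at 1.03 without French bulldog 6. The median was -0.0044 for 7 oligodendrocyte lineage, 0.053 for 4 astrocyte, -0.064 for 5 neuron and -0.091 for 4 endothelial markers. The part of proliferation or of these cells in the POLH difference was not tested.

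The other genes that handle stalled forks were described from lists written by role. Of 18 genes of PCNA ubiquitination and damage tolerance, 14 had a fitted log2 fold change above 0 in French bulldogs and 4 below, with a median of 0.07, where 53.7% of all genes were above 0. The 3 with an unadjusted p under 0.05 by edgeR, against 10.6% of all genes, were those named here, all above 0. ATAD5, which unloads PCNA from DNA, averaged 32.5 ± 21.1 CPM in French bulldogs and 14.4 ± 5.70 CPM in the comparison group (SD, n = 11 and 7, log2 fold change 1.17). USP1, which removes the ubiquitin that RAD18 adds, averaged 66.4 ± 25.1 and 42.4 ± 11.3 CPM (0.65), and 10 of 11 French bulldogs were above the comparison mean. PCNA itself, the clamp that the translesion polymerases bind, averaged 40.0 ± 22.5 and 21.5 ± 14.5 CPM (0.90). ATAD5 and USP1 thus had values on the same side as POLH, and neither passed after adjustment. Without French bulldogs 2, 6 and 8 the values were 0.53 for ATAD5, 0.31 for USP1 and 0.56 for PCNA. Against the boxers alone they were 1.41, 0.90 and 1.38, and against the Boston terriers alone 0.89, 0.37 and 0.43.

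The list of other DNA polymerases and primases also holds the helicase HELQ, which was at -0.011. Of its 14 measured genes, 7 had a log2 fold change above 0 and 7 below. By edgeR 1 of 14 had an unadjusted p under 0.05, against 10.6% of all genes. PRIM2, a primase subunit, had 0.53, POLE3, an accessory subunit of polymerase epsilon, 0.42, and POLG, the mitochondrial polymerase, -0.33. POLE3 was at 0.27 without French bulldog 6 and at 0.20 without French bulldogs 2, 6 and 8, PRIM2 at 0.37 without those 3, and POLG at -0.18 without boxer 1. Nucleotide excision repair, which removes the ultraviolet lesions that polymerase eta copies past, had 5 genes above 0 and 9 below of 14, and 1 in each direction had an unadjusted p under 0.05, against 7.02% higher and 3.55% lower of all genes. ERCC2, a helicase of TFIIH, averaged 12.1 ± 1.78 CPM in French bulldogs and 16.4 ± 3.29 CPM in the comparison group (log2 fold change -0.44), while RAD23B, a partner of the damage sensor XPC, averaged 88.1 ± 20.8 and 65.1 ± 9.30 CPM (0.44). XPA, the scaffold of the repair complex, had -0.24. Without French bulldogs 2, 6 and 8 these 3 were at -0.41, 0.34 and -0.15. Of 25 genes of homologous recombination and end joining, 17 were above 0 and 8 below and 2 in each direction had an unadjusted p under 0.05, with FEN1, the flap endonuclease, at 0.68, RAD50 at 0.45 and XRCC4, a partner of DNA ligase IV, at -1.06. Without French bulldogs 2, 6 and 8 FEN1 was at 0.49, RAD50 at 0.21 and XRCC4 at -0.86. FEN1 was at 0.37 against the Boston terriers, and XRCC4 at -0.50 against the libraries S18 to S21.

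Over these 4 lists, 0 of 71 genes had an adjusted p under 0.05 by edgeR, DESeq2 or limma-voom, and 10, 12 and 7 had an unadjusted p under 0.05 by these tools. By edgeR, 7 of the 71 had such a p and a value above 0 (9.86%) and 3 of the 71 one below (4.23%), against 7.02% and 3.55% of all genes. Without French bulldogs 2, 6 and 8 such genes were 0 of 18, 0 of 14, 2 of 14 and 0 of 25 in the lists of damage tolerance, other polymerases, excision repair and recombination. Over all genes of that fit, 1342 of 16242 had an unadjusted p under 0.05.

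**Figure D5:**
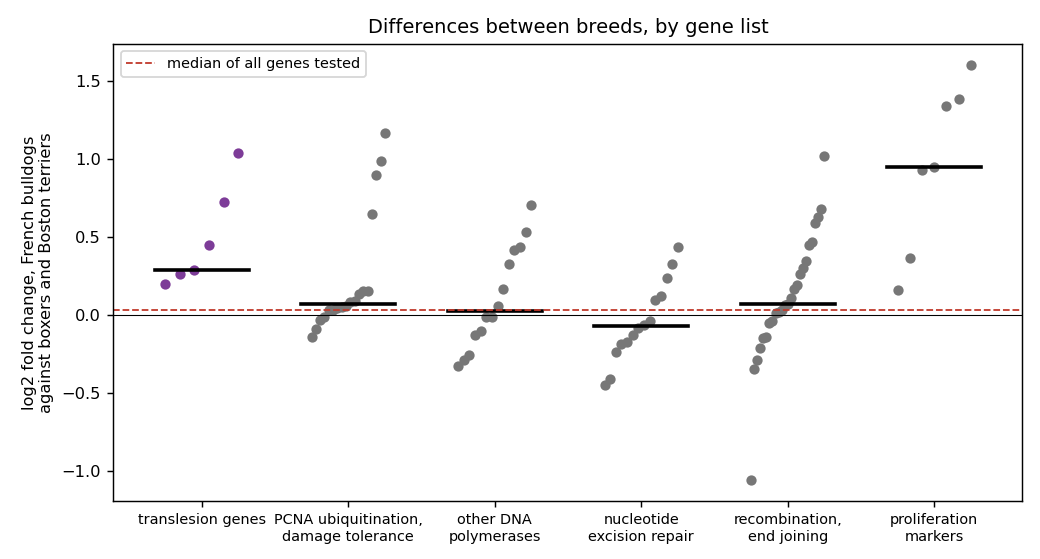
Log2 fold changes between French bulldogs and the comparison group (edgeR) for the genes of the translesion set and of the lists of DNA repair, replication and proliferation genes, 1 point per gene, with a bar at the median of each list (for the translesion genes, of the 5 other than POLH) and a dashed line at 0.035, the median of all genes tested. Proliferation markers have the highest median at 0.95, the 5 translesion genes other than POLH 0.29, and the other lists -0.07 to 0.07.

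The genes beside POLH were looked at because reads of overlapping genes can be mixed. In the RefSeq annotation of UU_Cfam_GSD_1.0, another dog assembly than that of the counts, POLH overlaps GTPBP2, and XPO5 and POLR1C lie on its other side. POLH shares 34255 bases of its span of 37006 with GTPBP2, and it also overlaps the pseudogene LOC111098199. POLK overlaps CERT1, POLI overlaps STARD6, REV3L overlaps LOC119874342 and RAD18 overlaps LOC102151515, while no gene overlaps MAD2L2. Whether the counting used strand is not given in the sources used here, so reads from these overlaps could not be assigned with certainty. XPO5, the export receptor of precursor microRNAs, had 61.8 ± 17.9 CPM in French bulldogs and 51.3 ± 16.7 CPM in the comparison group (SD, n = 11 and 7, log2 fold change 0.27, edgeR adjusted p = 0.664), and its log2 fold change was 0.17 without French bulldogs 2, 6 and 8. GTPBP2 had 17.7 ± 4.61 and 18.5 ± 3.55 CPM (-0.06, edgeR adjusted p = 0.935). POLR1C had a log2 fold change of -0.10 and MAD2L1BP, the next gene beyond GTPBP2 that was counted by symbol, 0.08. None of these 4 passed by edgeR. For GTPBP2, POLR1C and MAD2L1BP the sign changed with the comparison dogs or French bulldogs that were included.

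The genes whose pattern over the 18 dogs was most like that of POLH, by Spearman's rho of group-centred log2 CPM among 11583 genes with a symbol, were COMMD8 (0.90), PPM1D (0.89), SRSF1 (0.86), KIAA0586 (0.85) and ASB7 (0.85). PPM1D is a phosphatase that opposes p53 signalling, and SRSF1 is a splicing factor. Without French bulldog 6 these values were 0.84 to 0.87. The least like were PTH1R (-0.86), INPP5A (-0.86), DGKH (-0.84), GRAMD2B (-0.84) and PAPLN (-0.83). These are the extremes of many genes and are given as a description. Among the translesion genes, RAD18 was the most like POLH, with rho of 0.61 in all dogs and also without French bulldog 6. The least like was REV3L with 0.24 in all dogs, and MAD2L2 with 0.11 without French bulldog 6, where REV3L was at 0.50.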

How the data were processed

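Raw counts per gene for 18 libraries were deposited by the authors, who trimmed the reads with Trimmomatic 0.33, mapped them with HISAT2 2.1.0 to the canFam6 dog genome and counted them with featureCounts, per the methods and the labels. The strand and multi-mapping settings are not given in the sources used here. Groups came from the sample labels.

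Counts were tested with edgeR 4.0.16 in R 4.3.3 (TMM, filterByExpr by group, robust quasi-likelihood F test, two-sided), with Benjamini-Hochberg adjustment over all genes tested and a threshold of 0.05. The standard error of a log2 fold change was its size over the square root of F. Boxers were compared with Boston terriers in a fit of 3 groups over all 18 libraries. CPM are TMM-normalized, and log2 CPM used a prior count of 2. Correlations used 100000 permutations within groups, adjusted over 21 relations, fewer than planned because 2 genes had no row under their symbol. DESeq2 1.42.0, the authors' tool, and limma-voom (limma 3.58.1) were alternatives, as were other normalizations and filters, dogs left out, and a block for the dog number. The edgeR steps were tested on simulated data.

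The members and lists were chosen with earlier results of these data known. Named genes are the members, the 3 genes of each DNA repair, replication or proliferation list with the smallest edgeR p, the 5 genes most and least like POLH, the nearest genes beside POLH counted by symbol, and marker genes that set a dog apart. Outside this rule, ERCC1, GTF2H1, POLE, SLC1A3 and RBFOX3 were named after their values were seen, as extremes of rho with POLH in their lists. CD2 is named as the 1 T cell marker past the filter, HELQ by its role, and overlapping genes from the annotation. P-values measure the spread between libraries, each labelled as 1 dog.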

Additional observations from a re-analysis of the deposited data

Results flagged for a closer look

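RAD18 was at 11.5 CPM in Boston terrier 7, far from the other 6 dogs of the comparison group, and the gap to the next dog took 0.710 of the range of the group, above the critical ratio of 0.568 for 7 samples. This was the 1 such value among 12 sets of dogs tested, 6 genes in 2 groups, and chance gives one in about 5% of sets. The level rested on 139 counts. The same dog had the highest MKI67 level of the comparison group, 211 CPM, and without it the log2 fold change of RAD18 for French bulldogs was 1.01 in place of 0.72.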

How the results depend on the processing

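The 5 genes other than POLH had log2 fold changes above 0 in 168 of 170 values over all alternatives, none past the threshold (lowest adjusted p 0.392). The exceptions were POLK at -0.069 without French bulldogs 2, 6 and 8 and REV3L at -0.012 against libraries S18 to S21. POLH stayed between 0.94 and 1.16 with each dog left out. The number of genes called over the whole table, 1, became 58 with DESeq2, 2 with upper quartile normalization or limma-voom, 0 with at least 10 counts in every dog, with French bulldogs 2 and 8 summed (also without French bulldog 6), against boxers alone, S18 to S21 or S1 to S3, and 0 to 7 with each dog left out. Over the dogs numbered 1 to 7, a replicate block gave 0 calls against 5 without it, and POLH 1.11 against 1.13. Dogs with the same number did not deviate together (r from -0.50 to 0.21), so the numbers do not pair them. Signs turned for POLR1C (0.023 without French bulldogs 2, 6 and 8 and 0.019 against S1 to S3), MAD2L1BP (-0.20 against boxers, -0.012 against S18 to S21) and GTPBP2 (0.049 against Boston terriers, 0.11 against S1 to S3). With each dog left out, GTPBP2 was at -0.12 to 0.031 and MAD2L1BP at -0.015 to 0.23. For boxers against Boston terriers, POLH was at -0.073 to 0.28, POLI at -0.25 to 0.39, REV3L at 0.25 to 0.84, MAD2L2 at -0.036 to 0.24 and RAD18 at -0.79 to 0.18.

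Of the 6 relations past the threshold, the count was 2 without the 2 dogs farthest from the median and 0 without French bulldogs 2, 6 and 8. It was 4 with French bulldogs 2 and 8 summed, 7 without French bulldog 6 and 9 uncentred. Calls were gained by POLI and MKI67 (r = 0.71) and POLH and POLI (0.61) without French bulldog 6, and by POLI and MKI67 (0.58), POLH and POLK (0.60) and MAD2L2 and RAD18 (0.61) uncentred, while POLK and MAD2L2 lost theirs without French bulldog 6 (0.59). Without French bulldogs 2, 6 and 8 r turned to -0.26 for POLH and MAD2L2, -0.25 for POLK and MAD2L2, -0.20 for POLK and RAD18, -0.14 for POLI and MAD2L2, -0.36 for POLK and MKI67 and -0.11 for REV3L and MKI67. REV3L and MAD2L2 turned to 0.11 without French bulldog 6, 0.24 without the 2 farthest dogs and 0.029 uncentred, REV3L and RAD18 to 0.32 without the 2 farthest dogs, and REV3L and MKI67 to -0.076 with French bulldogs 2 and 8 summed. The cause was not tested. Levels of POLH, MAD2L2 and RAD18 rest on 13 to 167 counts per dog.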

Other observations

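The markers of other brain cells were set beside POLH over the 18 dogs, as Spearman's rho of group-centred log2 CPM and as a description, since all points share their library. All 7 proliferation markers were above 0 (median 0.62), with BUB1 highest at 0.73. None of the 4 astrocyte markers was above 0 (median -0.55), nor any of 5 neuron markers (median -0.48) or of 4 endothelial markers (median -0.36). Among the astrocyte markers SLC1A3, a glutamate transporter, was lowest at -0.68, and RBFOX3, a neuronal nuclear protein, was lowest of the neuron markers at -0.67. Of 7 oligodendrocyte lineage markers 2 were above 0 (median -0.10), and of 8 macrophage and microglia markers 1 was (median -0.19). The lineage list, that of the tumor itself, turned to a median of 0.14 without French bulldog 6, with SOX10 at 0.81 in place of 0.35, and the macrophage list to -0.48. Over all 11583 genes with a symbol, 48.3% were above 0 and the median was -0.02. Without French bulldog 6 the medians were 0.60 for proliferation, -0.46 for astrocyte, -0.47 for neuron and -0.41 for endothelial markers.

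Of the DNA repair lists, 21 of 25 genes of homologous recombination and end joining and 14 of 18 of PCNA ubiquitination and damage tolerance had a rho above 0 with POLH. In the list of other polymerases, which holds HELQ, 10 of 14 did. In nucleotide excision repair 8 of 14 did, and its values ran from -0.57 for ERCC1, a subunit of the incision nuclease, to 0.71 for GTF2H1, a subunit of TFIIH. POLE, the catalytic subunit of the leading strand polymerase, was the most like POLH of the other polymerases, at 0.78.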
